A study of Mus musculus with 33 samples.

Results

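The genes described here are 9 transcription factors tied to macrophage identity: Spi1, Irf8, Cebpb and Zeb2, which act broadly in phagocytes, and Maf, Id3, Klf4, Sall1 and Bhlhe41, which mark macrophages of particular tissues or states. They were listed by name, were 9 of the 32285 genes in every count matrix, and were followed through the monocytes and macrophage types of each tissue and biotin sort. Cells came from mice injected with tumour cells in SAMENT experiments, in which an enzyme carried by the tumour cells tags neighbouring cells with biotin during an overnight labelling period. Bone, brain, liver and lung were taken after intracardiac injection. Cells that carried biotin (positive sort) were separated from those that did not (negative sort), with 4 samples of each tissue and sort (32 samples in 8 groups, 3′ libraries). Bone taken after the injection that the labels call IIA was deposited as 1 pooled 5′ matrix of 12 hashtagged samples, 6 biotin-positive and 6 biotin-negative, numbered by injection. All of these groups were from injected animals, so the negative sort is unlabelled tissue of a tumour-bearing mouse, not tissue of an uninjected one. The labels name neither mouse strain, age, sex nor tumour line, and do not say whether samples that share a number came from the same animal.

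PU.1, the ETS protein made from Spi1, opens enhancers in all myeloid cells, and tissue signals then add partner factors that give a macrophage its local character. IRF8 pairs with PU.1 and guides monocyte, dendritic cell and microglial fate, C/EBPβ drives monocyte and macrophage maturation and inflammatory genes, and ZEB2 is a repressor that maintains macrophage identity. SALL1 is known as a microglial factor, BHLHE41 as a factor of alveolar macrophages, ID3 as a factor of Kupffer cells, c-MAF as a factor of vessel-associated and interleukin-10-producing macrophages that restrains self-renewal, and KLF4 as a factor of monocytes and of anti-inflammatory macrophages.

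The genes lie at scattered places in the mouse genome (GRCm38, GENCODE annotation). Maf spans chr8:115682942-115707794, Irf8 chr8:120736358-120756694 and Sall1 chr8:89027235-89044162. Spi1 spans chr2:91082390-91115756, Cebpb chr2:167688915-167690418 and Zeb2 chr2:44983632-45117395. Id3 spans chr4:136143497-136145755, Klf4 chr4:55527143-55532466 and Bhlhe41 chr6:145858243-145865558. Irf8, Spi1, Cebpb and Id3 are on the plus strand and the other members on the minus strand. RefSeq promoter windows (GRCm38.p6) were matched for 7 of the 9 members, with 13 windows, and those of Maf and Spi1 were not used here.

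Promoters of Sall1 and Bhlhe41 are shown because these are the members with the narrowest spread over cell types below. Each line gives the 250 bases before the start site on the minus strand, 5′ to 3′, with the searched motif in capitals. In Sall1 (chr8:89042863-89043112) it is the ETS core AGGAAGT, the kind of site that PU.1 binds, with its first base at position -181 from the start site, in 1 of the 3 Sall1 windows. In Bhlhe41 (chr6:145865421-145865670) it is the E-box CACGTG, the site of the protein's own family, at position -153.
Sall1: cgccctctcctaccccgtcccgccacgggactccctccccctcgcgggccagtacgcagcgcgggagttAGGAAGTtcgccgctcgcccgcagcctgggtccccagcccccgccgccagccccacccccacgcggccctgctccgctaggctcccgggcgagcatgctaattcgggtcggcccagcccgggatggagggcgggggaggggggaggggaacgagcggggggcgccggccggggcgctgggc
Bhlhe41: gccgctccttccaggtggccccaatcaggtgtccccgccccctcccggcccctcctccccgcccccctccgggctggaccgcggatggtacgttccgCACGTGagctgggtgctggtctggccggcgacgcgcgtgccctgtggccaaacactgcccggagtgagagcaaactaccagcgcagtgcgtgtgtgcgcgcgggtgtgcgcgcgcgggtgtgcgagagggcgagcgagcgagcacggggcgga
In all, 4 motifs were searched on both strands of these windows. AGGAAGT was in 7.69% of all 32817 promoter windows and CACGTG in 6.02%. TGCTGA, a MAF half-site, was in 16.1% and TTGCGCAA, a C/EBP site, in 0.165%. Among the members, CACGTG was also in Klf4 (position -182) and TGCTGA in 1 window of Irf8 (position -157). A match is a description of the sequence only.

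Cells were kept from 500 unique molecular identifiers upward (UMIs, tags of single captured RNA molecules), with 200 genes or more and no more than 15% mitochondrial UMIs, which left 55366 of 57065 intracardiac cells and 22362 of 26666 IIA cells with a single hashtag. Total UMIs ranged from 497940 to 44874529 over the intracardiac samples, and the IIA matrix held 153488427. Clustering, from which the 9 members were left out, placed 16594 intracardiac and 2973 IIA cells among the mononuclear phagocytes. Levels are in CPM, the UMIs of a gene in the summed cells of a sample as a share of all their UMIs, scaled to a total of 1000000. They are compared only within a gene and within the 3′ or the 5′ libraries.

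The phagocyte clusters were named from marker lists and led by their usual genes. Classical monocytes (Ccr2, Vcan, F13a1) formed 2 intracardiac clusters, of 3105 and 3324 cells, and nonclassical monocytes (Ace, Cd300e, Adgre4) formed 1 of 1004. Macrophage clusters comprised microglia (450 cells, with Gpr34 and Tmem119 among its leading genes), alveolar macrophages (3844 and 119 cells, Plet1 and Ear1), and a Cd5l, Vcam1, Clec4f and Vsig4 cluster of 1479 cells. The last is called Kupffer-like in liver and Vcam1 macrophages in bone. The others were a Lyve1 cluster of 1328 cells, mostly of brain (Apoe, Cbr2, Ms4a7, Lyve1), and a cluster of 1941 cells found in all 4 tissues, with Pf4 and Spp1 among its leading genes (Pf4 Spp1 macrophages). The IIA bone had 1 macrophage cluster of 1208 cells with C1qa, C1qb, C1qc and Mrc1 among its leading genes.

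Some libraries stood apart and touch results below. Of the Kupffer-like cells of the liver positive sort, 830 of 978 were from replicate 2, and liver positive replicate 4 had too few phagocytes to enter. In the bone positive sort, replicates 1 and 2 held 242 and 406 macrophages, and these 2 alone had enough for a within-macrophage test. Classical monocytes of brain and liver negative replicate 1 fell in the cluster that held most bone monocytes (391 against 18 cells, and 1080 against 38). So did those of brain and liver positive replicate 1 (20 against 1, and 184 against 9), whereas the other brain, liver and lung samples with 2 or more such cells had more of them in the other cluster, by as little as 12 against 10 in liver positive replicate 3. Samples with the same replicate number shared 0 cell barcodes in 112 pairs, samples with different numbers shared 341 in 384 pairs, and the IIA matrix shared 39 with the intracardiac samples.

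Spi1, Zeb2 and Cebpb were present in every monocyte and macrophage type. Mean Spi1 levels in the negative-sort classical monocytes were 491 ± 30.6 CPM in liver, 432 ± 20.8 in brain, 430 ± 34.2 in lung and 427 ± 23.2 in bone (SD, n = 4 each). Nonclassical monocytes of the lung positive sort had the highest mean, at 722 ± 94.9 CPM (n = 3). The Lyve1 macrophages of the brain negative sort had the lowest, at 246 ± 41.8 CPM (n = 4). T cells, which should lack the gene, had 5.70 to 33.6 CPM in group means of the intracardiac samples and the IIA negative sort.

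Zeb2 means in macrophages ranged from 428 ± 85.1 CPM in alveolar macrophages (n = 4) to 896 ± 340 in Kupffer-like cells (n = 3), over the intracardiac positive-sort types with 2 or more samples. Microglia (619 ± 160, n = 4), Lyve1 brain macrophages (807 ± 138, n = 4) and bone Vcam1 macrophages (863 ± 32.2, n = 2) lay between, and the spreads of neighbours in this order overlapped. Zeb2 shares its locus with the antisense gene Zeb2os (chr2:45110707-45114087, plus strand). The labels do not say whether reads were counted by strand, and reads of the 2 genes cannot be told apart.

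Cebpb was high in monocytes and Pf4 Spp1 macrophages of the lung negative sort, and low in microglia. Monocytes of the bone negative sort, both types together, had less, at 1223, 1707, 1357 and 940 CPM. In the lung negative sort, nonclassical monocytes had 3599 ± 356 CPM, classical monocytes 2675 ± 499 and Pf4 Spp1 macrophages 2563 ± 296 (n = 4 each). Alveolar macrophages of the positive sort followed with 2123 ± 464 (n = 4), and Kupffer-like cells had 1324 ± 555 (n = 3). Microglia had 783 ± 262 (n = 4). The spreads of lung monocytes and Pf4 Spp1 macrophages overlapped, while the 4 microglia samples lay below them. T cells of the intracardiac groups, a background for this gene, had Cebpb means of 108 to 296 CPM.

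Irf8 had a narrower but ordered spread. Microglia of the positive sort had 444, 373, 386 and 412 CPM in replicates 1 to 4, and Vcam1 macrophages of bone had 446 and 379. These 2 types overlapped each other. Kupffer-like liver macrophages had 280, 258 and 182 CPM and Lyve1 brain macrophages 276, 175, 153 and 291. Alveolar macrophages had 129, 103, 85.5 and 108 CPM, below every sample of those types. Plasmacytoid dendritic cells, which depend on this factor, were far above all phagocytes, with 3087 ± 246 CPM in the bone negative sort (n = 4).

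Sall1 was a microglial gene in these data. Microglia of the brain positive sort had 296, 164, 164 and 231 CPM in replicates 1 to 4, from 18, 25, 70 and 303 cells, and the microglia of brain negative replicate 4 had 203 CPM from 18 cells. Of 41 cell type, tissue and sort groups of monocytes and macrophages, 36 had 0 Sall1 UMIs. The limit that 3 UMIs over a group would set ran from 0.193 CPM in bone classical monocytes to 133 CPM in the smallest group, so the lowest positive-sort microglia sample was at least 850.0-fold higher than the bone monocytes. Outside microglia, Lyve1 macrophages of the brain positive sort held 7 Sall1 UMIs, and alveolar and Kupffer-like macrophages held 2 each, against 503 in positive-sort microglia. After thinning each cell to 2000 UMIs, 34.1% of positive-sort microglia had a Sall1 UMI (61.8% unthinned, median depth 5228 UMIs), at most 0.282% of any other phagocyte type did, and no T cell of the brain positive sort did (median depth 3090 UMIs).

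Bhlhe41 was shared by alveolar macrophages and microglia. Alveolar macrophages of the lung positive sort had 129, 127, 219 and 108 CPM in replicates 1 to 4, and microglia of the brain positive sort had 95.7, 104, 178 and 149. The 2 ranges overlapped. The share of cells with a UMI at 2000 UMIs was 22.8% in alveolar macrophages (59.6% unthinned, median depth 8447 UMIs) and 25.6% in microglia (50.5% unthinned), against at most 0.414% in any intracardiac T-cell group (bone positive sort, median depth 3591 UMIs). Lyve1 macrophages of brain had 37.7 ± 15.7 CPM in the positive and 29.8 ± 20.5 in the negative sort (n = 4 each). Pf4 Spp1 macrophages of the positive sort had 21.3 ± 6.56 CPM in bone (n = 2), 23.1 ± 13.7 in liver (n = 3) and 18.6 ± 12.9 in lung (n = 4), and those of the negative sort had means of 0 to 2.95. Classical monocytes had means under 1 CPM in every intracardiac group.

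Among the phagocytes, Id3 was high in liver macrophages and nearly absent from microglia. Kupffer-like cells of the liver positive sort had 307, 686 and 790 CPM in replicates 1 to 3, and those of the negative sort 422 and 907 in replicates 2 and 3. The bone Vcam1 macrophages, in the same cluster, had 20.8 and 22.2 CPM, below every liver sample. Alveolar macrophages had 78.3, 24.5, 7.72 and 7.85 CPM. Positive-sort microglia had 0, 7.45, 0 and 0 CPM, that is 1 UMI in all. At 2000 UMIs, 65.6% of positive-sort Kupffer-like cells and 0.131% of microglia had an Id3 UMI. T cells of the liver positive sort, as a background, had 4.03% (median depth 2963 UMIs against 5420 in Kupffer-like cells).

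Maf was highest in Lyve1 brain macrophages and nearly absent from alveolar macrophages. In the positive sort, Lyve1 brain macrophages had 3527, 2294, 1341 and 2205 CPM in replicates 1 to 4, bone Vcam1 macrophages had 1712 and 1317, and Kupffer-like cells had 1386, 1068 and 988. These 3 types overlapped at their edges. Microglia had 670, 440, 563 and 635 CPM, below all of them. Alveolar macrophages had 7.38, 9.87, 8.72 and 3.37 CPM, less than the 26.4 to 54.1 CPM that negative-sort classical monocytes had as tissue means. The gene is not restricted to phagocytes: liver endothelial cells of the negative sort had 3209 ± 708 CPM (n = 4), and T cells had means of 82.8 to 546 CPM over groups. The antisense gene Gm15655 (chr8:115705078-115707233, plus strand) lies within Maf, and its reads cannot be told apart from those of Maf without strand.

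Klf4 was high in 2 brain types and in nonclassical monocytes. Lyve1 macrophages of the brain positive sort had 368, 1465, 941 and 1046 CPM, and microglia 104, 440, 1076 and 485 in the same replicates. Both types were lowest in replicate 1 and overlapped each other. Nonclassical monocytes had group means of 298 to 542 CPM among the groups of 2 or more intracardiac samples, alveolar macrophages 289 ± 55.0 (n = 4) and Kupffer-like cells 130 ± 88.8 (n = 3).

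**Figure D1:**
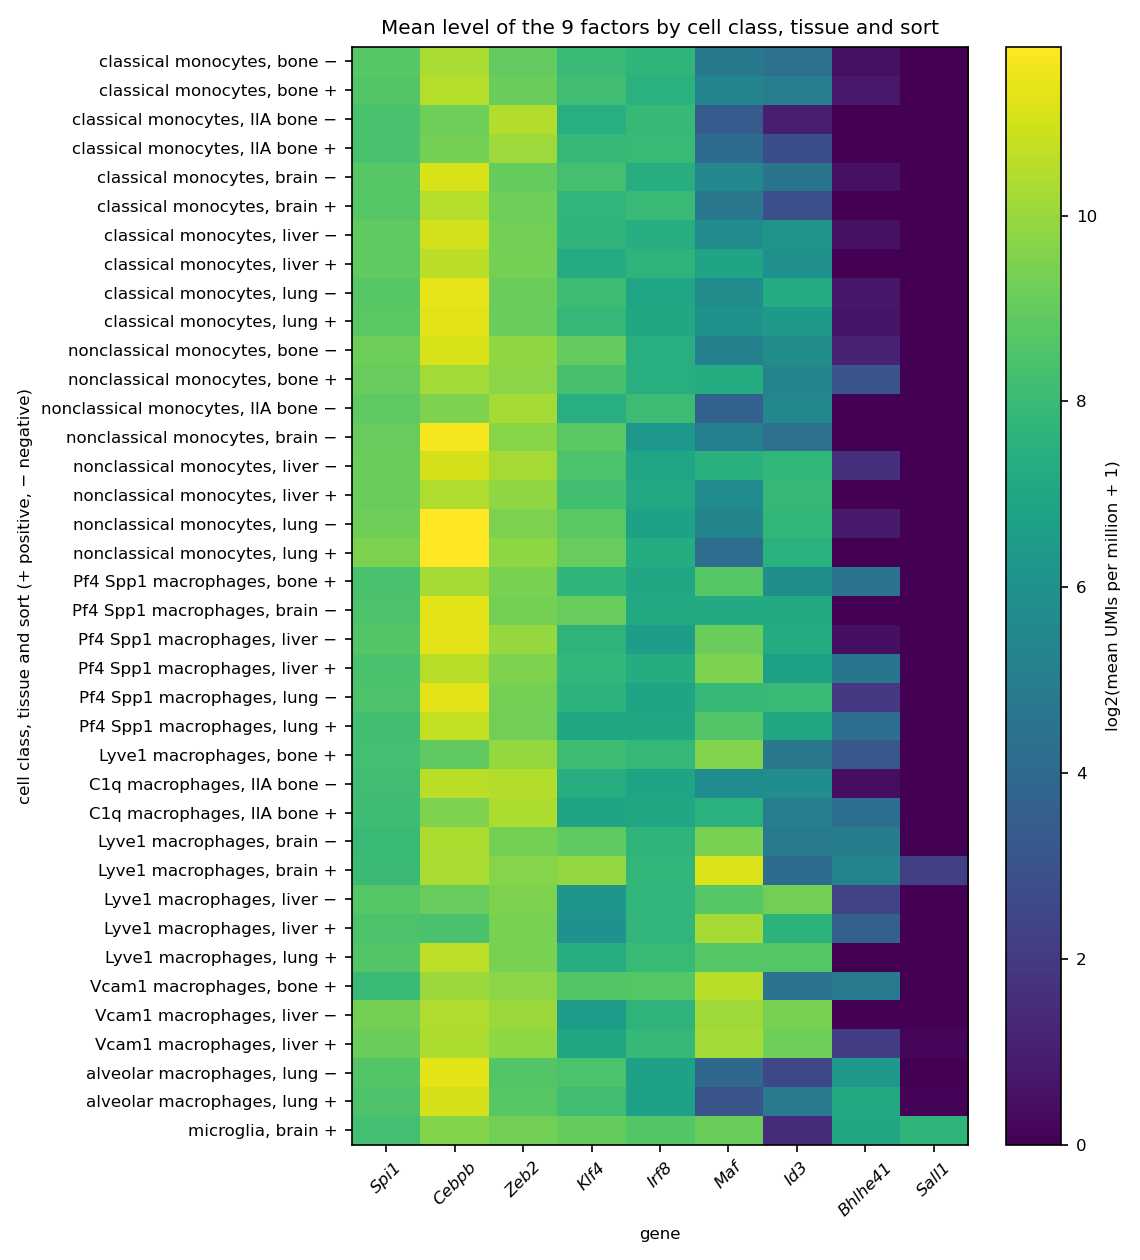
Mean level of each of the 9 genes in each phagocyte type, tissue and biotin sort, as log2 of CPM plus 1 (colour) for the intracardiac and IIA samples. The Vcam1 macrophages of liver are the Kupffer-like cells. Sall1 is bright in microglia, Bhlhe41 in microglia and alveolar macrophages, and Id3 in Kupffer-like cells, and Maf is dark in alveolar macrophages.

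**Figure D2:**
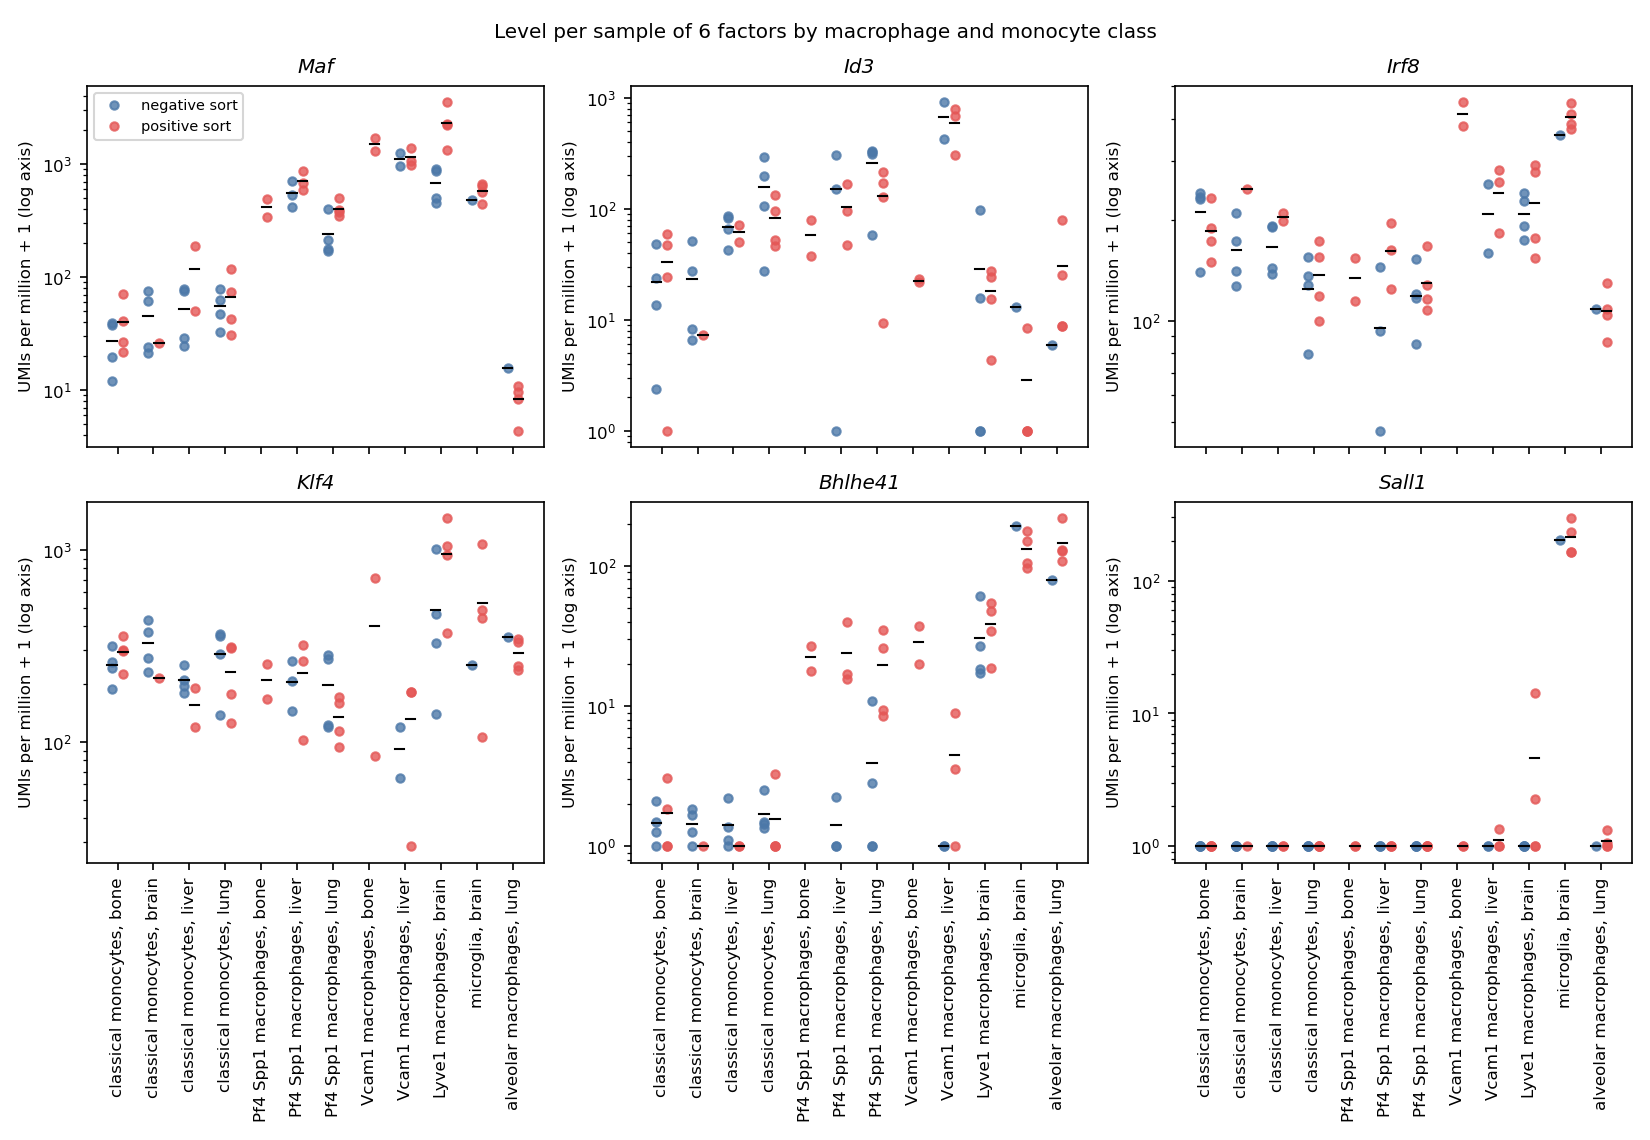
Level of 6 members in each sample of the named macrophage and monocyte types, as CPM plus 1 on a log axis. Each point is 1 sample and each bar the group mean. Alveolar macrophages lie at 3.37 to 9.87 CPM of Maf and microglia at 163.7 to 295.8 CPM of Sall1 in the positive sort.

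The next comparison asked whether the labelled macrophages of the 4 tissues differed, taking all macrophage clusters of a positive sample together. Across 2 bone, 4 brain, 3 liver and 4 lung samples, 7 of the 9 members differed among tissues by edgeR's quasi-likelihood F test at an adjusted p under 0.05, where 31.4% of all 10941 tested genes did. These were Maf (adjusted p = 0.00093), Sall1 (8.59e-05), Bhlhe41 (0.00349), Irf8 (0.00536), Id3 (0.00584), Klf4 (0.0145) and Spi1 (0.047). Cebpb (0.394) and Zeb2 (0.223) did not pass. Sall1 had 34, 25, 59 and 392 UMIs in the brain samples and at most 2 in any other. It passed the filter on low counts only through the brain samples, where it is high, so its call adds no support. The Spi1 call was lost when scaling factors between libraries were left out (adjusted p = 0.0866, edgeR), when any sample but liver positive replicate 1 was left out (adjusted p up to 0.0994), and the Klf4 call without brain positive replicate 2 (0.0606).

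Brain differed from the mean of the others in 6 members: Maf, Klf4, Irf8, Bhlhe41, Id3 and Sall1, of which nearly all UMIs lay in microglia. Maf was 2822, 2111, 798 and 872 CPM in the brain samples, 931, 1047 and 699 in those of liver, 738 and 760 in bone and 130, 94.3, 46.2 and 197 in lung. Every lung sample lay below every other sample, both bone samples lay below every brain sample, and brain overlapped liver. Against the mean of the other tissues, Maf was higher in brain (log2 difference 1.92, SE 0.38, adjusted p = 0.0025, edgeR) and lower in lung (-3.05, SE 0.46, adjusted p = 0.000487). Brain was also higher for Klf4 (1.77, SE 0.38, adjusted p = 0.00448), Irf8 (0.79, SE 0.19, adjusted p = 0.00898) and Bhlhe41 (1.46, SE 0.42, adjusted p = 0.0193), at a share of 30.4% called among all genes. The Bhlhe41 difference was lost without brain positive replicate 3 or 4 (adjusted p = 0.0608 and 0.0919). Klf4 was 300, 1370, 1008 and 570 CPM in brain samples, 232 and 390 in bone, 220, 303, 313 and 170 in lung and 87.8, 186 and 277 in liver, so that brain replicate 1 lay among the other tissues. Dissociation-linked stress genes moved with the brain contrast, since 9 of the 15 on the list were higher there (median log2 difference 1.30), and their part in the Klf4 difference was not tested.

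Id3 separated liver from brain. Liver samples had 172, 651 and 263 CPM and brain samples 23.5, 26.9, 9.13 and 0.504. Bone samples had 59.0 and 29.1 CPM and lung samples 109, 58.2, 20.4 and 8.82. All 3 liver samples lay above all others. The liver difference was 3.49 (log2, SE 0.68, adjusted p = 0.0154, edgeR, where 2.39% of all genes were called), and it was lost without liver positive replicate 2 (adjusted p = 0.18), bone positive replicate 1 (0.0556) or bone positive replicate 2 (0.0852). The brain difference was -2.59 (SE 0.81, adjusted p = 0.0286) and was lost without brain positive replicate 1, 3 or 4 or bone positive replicate 1, with adjusted p up to 0.0701.

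Lung differed by Maf, Bhlhe41 and Irf8, at a share of 19.7% called among all genes. Bhlhe41 was 2.04 higher (log2, SE 0.40, adjusted p = 0.00291, edgeR), and its lung samples had 90.2, 109, 197 and 53.9 CPM. Irf8 was lower (-0.99, SE 0.21, adjusted p = 0.00421). The lung samples had 129, 114, 87.7 and 116 CPM of Irf8, below every sample of bone (216 and 223), brain (310, 184, 309 and 394) and liver (198, 253 and 139). No member passed for bone, where 0.658% of all genes were called with 2 samples.

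Monocytes of the negative sort were compared across the 4 tissues in the same way. Of the 7 members tested there, Id3 passed (F test, adjusted p = 0.0459, edgeR, where 3.6% of 9675 genes were called). Lung replicates 1 to 4 had 214, 300, 104 and 27.8 CPM of Id3 and those of liver 64.8, 101, 100 and 41.4. Bone replicates had 23.2, 52.4, 12.9 and 1.3 CPM and those of brain 7.05, 50.3, 25.6 and 6.06. Replicate 4 had the lowest value in all 4 tissues, and the ranges of the tissues overlapped. Lung against the mean of the others gave a log2 difference of 2.38 (SE 0.55, adjusted p = 0.0303, 3.3% called). That call was lost without lung negative replicate 1 (adjusted p = 0.146), lung negative replicate 2 (0.123) or brain negative replicate 4 (0.0512). The F test was lost in 13 of 16 such fits (adjusted p up to 0.146). Same-number samples of different tissues had correlated deviations here, at 0.0743 to 0.548 over 24 pairs, though the numbers were not taken as pairs. With the replicate block 5 members passed the F test, Maf, Spi1, Cebpb and Zeb2 beside Id3. The share of 3.6% does not apply to that fit.

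Cebpb in the same monocytes had 1223, 1707, 1357 and 940 CPM in bone replicates 1 to 4 and 3145, 3122, 2615 and 2086 in those of lung. Brain replicates had 1381, 3161, 2588 and 1959 CPM and liver replicates 1105, 3130, 2320 and 1792. Bone differed from the mean of the others by -0.96 (log2, SE 0.26, adjusted p = 0.0492, edgeR, 3.35% called), with the lowest brain and liver values in the replicate 1 samples whose monocytes clustered with those of bone. The call was lost in 12 of 16 fits that left out 1 sample (adjusted p up to 0.251), and without scaling factors (-0.85, adjusted p = 0.0561, edgeR). Of the stress genes, 9 of 15 were lower in bone monocytes, with summed levels of 3128 to 4768 CPM against 6100 to 14550 over the other tissues, and their part in the Cebpb difference was not tested. Bone held 62.4% of its negative-sort phagocytes in one classical cluster and 24.1% in the other, while lung held 1.49% and 67.9%.

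**Figure D3:**
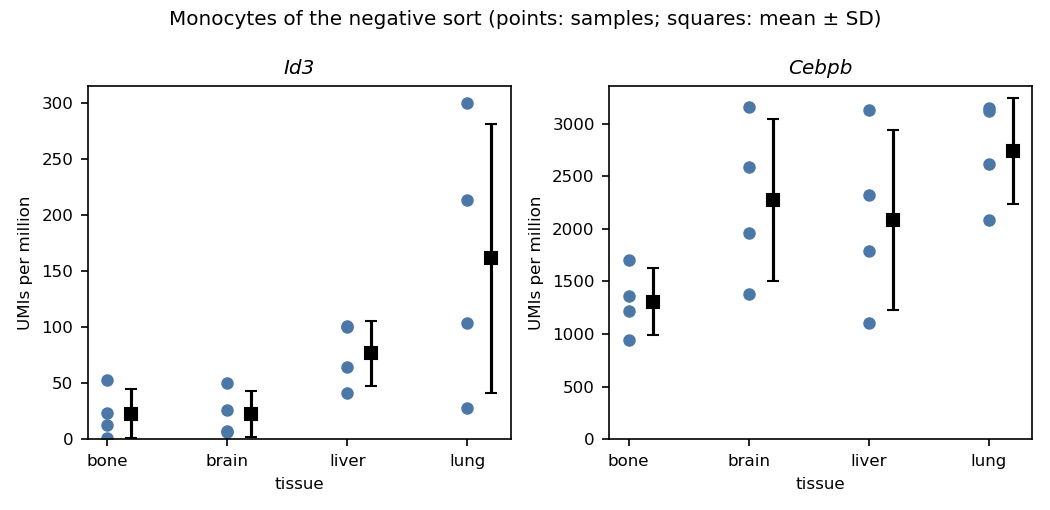
Levels of Id3 and Cebpb in monocytes of the negative sort by tissue, in CPM, with each replicate as a point and squares for the mean with SD. Id3 reaches 300 CPM in lung and Cebpb is lowest in the bone samples and in replicate 1 of brain and liver.

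The sort comparison asked how cells that took the biotin label, near tumour cells, differed from those that did not. Over all mononuclear phagocytes of a sample, the positive sort held more macrophages and fewer monocytes, and these shares belong beside every value of this comparison. Macrophages were 0.565% to 4.58% of phagocytes in bone negative samples and 20% to 90.4% in positive ones. The corresponding shares were 4.16% to 45.9% and 91.3% to 98.7% for brain, 2.57% to 37.9% and 46.3% to 98.8% for liver, 12.1% to 24.5% and 82.1% to 99.1% for lung, and 5.63% to 25.8% and 55.9% to 98.8% for IIA bone.

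The scaling between libraries also matters for the smaller differences here. The fits used edgeR's scaling factors (TMM), while CPM values are printed without them. With library sizes alone, the median log2 difference over all genes moved up by 0.31 in lung phagocytes, 0.25 in brain, 0.22 in liver and 0.12 in bone, and by -0.11 in IIA bone. The share of called genes that were higher went from 52.3% to 77.4% in lung, from 49.3% to 68.7% in brain and from 56.3% to 42.1% in IIA bone. In lung macrophages the median moved by 0.30 and the share from 51.0% to 78.2%. Maf, Sall1 and Bhlhe41 calls in phagocytes held with library sizes alone, and those that did not hold are named beside their values.

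Maf was higher in labelled phagocytes of bone, brain and IIA bone. In brain it had 32.3, 237, 133 and 89.1 CPM in negative replicates 1 to 4 and 2365, 2077, 742 and 847 in positive ones, a log2 difference of 3.38 (SE 0.62, adjusted p = 0.00282, edgeR, where 37.6% of all genes were called). In bone it had 20.8, 47.0, 46.8 and 14.8 CPM against 384, 628, 110 and 101, a difference of 3.18 (SE 0.57, adjusted p = 0.0204, 2.38% called), lost without bone negative replicate 1 or 4 (adjusted p up to 0.0595). In IIA bone it had 7.14, 37.0, 22.4, 15.1, 11.3 and 5.23 CPM in the negative samples of injections 1 to 6 and 82.6, 236, 129, 279, 127 and 72.1 in the positive ones. The groups did not overlap in any of these 3 comparisons, as for 36.6% of all genes in brain, 6.58% in bone and 11.1% in IIA bone. The IIA difference was 3.28 (log2, SE 0.43, adjusted p = 6.12e-05, edgeR, 29.9% called). In IIA bone Maf passed the filter on low counts only with the positive samples, since negative injection 6 fell under it. That call therefore adds no support.

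Maf did not pass in liver or lung phagocytes. In liver, Maf had 30.1, 222, 231 and 146 CPM in the negative sort and 461, 1037 and 625 in positive replicates 1 to 3, without overlap (as for 22.9% of all genes). The log2 difference was 1.93 (SE 0.59, adjusted p = 0.142, edgeR), in a comparison where edgeR called 0 of 10235 genes and DESeq2 631. An unadjusted p under 0.05 was reached by 2207. DESeq2 gave an adjusted p of 0.02 for Maf. In lung, Maf had 64.0, 111, 71.7 and 110 CPM against 126, 94.3, 48.6 and 175, a difference of 0.03 (SE 0.36, adjusted p = 0.948). When the Pf4 Spp1 cluster was left out, the lung difference was -2.24 (adjusted p = 0.00052, edgeR). The effect of the sort on Maf differed among tissues (interaction F test, adjusted p = 0.027, edgeR, where 12.8% of 11604 genes were called), and the lung effect was below the mean of the others by -2.78 (SE 0.72, adjusted p = 0.0119, 9.79% called). The interaction F test was lost without brain negative replicate 4, lung negative replicate 2 or 4, or lung positive replicate 2 or 3 (adjusted p up to 0.0718).

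Sall1 and Bhlhe41 followed the microglia and alveolar macrophages of the positive sort. Brain phagocytes had 0.255, 0.939, 0.5 and 5.39 CPM of Sall1 in the negative and 35.1, 9.43, 99.8 and 192 in the positive sort (log2 difference 5.18, SE 1.04, adjusted p = 0.0041, edgeR). The negative samples held 1, 2, 1 and 17 Sall1 UMIs, so the gene passed the filter on low counts only through the positive samples, and its call adds no support. The summed microglia markers rose with it, from 422.5 to 673 CPM in negative samples to 1275 to 13213 in positive ones. Bhlhe41 rose in brain (3.67, SE 0.57, adjusted p = 0.00141, 37.6% of all genes called) and in lung, where it had 1.62, 6.99, 1.02 and 1.26 CPM in the negative and 87.1, 109, 176 and 46.5 in the positive sort (5.00, SE 0.57, adjusted p = 0.000217, 39.2% of all genes called). In neither tissue did the groups overlap, as for 36.6% of all genes in brain and 41.3% in lung. In liver it had at most 2.44 CPM in the negative and 10.5, 5.05 and 11.3 in the positive sort (2.41, SE 0.57, adjusted p = 0.0887, edgeR, 0.0493 with library sizes alone and 0.0138 by DESeq2).

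Bhlhe41 was also higher in IIA bone, where no cluster of microglia or alveolar macrophages was found. The IIA phagocytes held 1 Bhlhe41 UMI over all 6 negative samples and 121 over the positive ones, with 11.3, 8.88, 24.9, 14.7, 10.9 and 15.7 CPM in the positive samples of injections 1 to 6 (adjusted p = 1.46e-06, edgeR). The pooled ratio of levels was 191, with a 95% exact counting interval of 33.6 to 7603, which covers counting error only. Of the 121 UMIs, 77 were in positive injection 3, and the ratio was 120 without that sample. The single negative UMI was in injection 2. Without that sample the ratio was at least 52.8, against a limit of 3 UMIs over the negative samples. Within the macrophage cluster alone the ratio was 29.2 (5.14 to 1162), and there the gene fell under edgeR's filter on low counts, while DESeq2 gave an adjusted p of 0.000959. Intracardiac bone phagocytes had 0.372, 2.29, 0.445 and 0 CPM against 9.51, 20.7, 0 and 4.82, which overlap. In brain, lung, liver and IIA bone the gene passed the filter on low counts only through the positive samples, so these calls add no support.

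Of the broadly used factors, Spi1 and Cebpb had calls in the other direction. Spi1 was lower in labelled phagocytes of brain, with 403, 385, 403 and 430 CPM against 306, 279, 250 and 343 (log2 difference -0.71, SE 0.15, adjusted p = 0.00516, edgeR, 37.6% called). With library sizes alone the brain difference was -0.45 (adjusted p = 0.0455). It was also lower in lung, with 387, 430, 431 and 458 CPM against 349, 358, 357 and 381 (-0.54, SE 0.12, adjusted p = 0.00661, 39.2% called). Neither pair of groups overlapped, as for 36.6% of all genes in brain and 41.3% in lung. Cebpb was lower in lung, with 3074, 3004, 2564 and 2177 CPM against 2196, 2235, 2297 and 1585 (-0.69, SE 0.16, adjusted p = 0.00823). With library sizes alone neither lung call held, at -0.24 (adjusted p = 0.116) for Spi1 and -0.38 (0.086) for Cebpb, by edgeR. In brain Cebpb (-1.19) and Irf8 (0.55) passed with the replicate number as a block (adjusted p = 0.00458 and 0.0285, edgeR, 42.1% called) and not without it (-1.01 and 0.0988, 0.56 and 0.0731). Irf8 also passed with library sizes alone (0.83, adjusted p = 0.0235).

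The calls of Id3 and Zeb2 in lung and of Irf8 in IIA bone lay near the threshold, and leaving out any of several samples lost them. Id3 in lung had 228, 290, 127 and 33.8 CPM against 111, 58.3, 25.4 and 14.8 (-1.94, SE 0.69, adjusted p = 0.0464, edgeR), and Zeb2 had 615, 549, 659 and 549 against 623, 399, 510 and 474 (-0.54, SE 0.18, adjusted p = 0.0344). The Id3 call was lost without lung negative replicate 1, 2 or 3 or lung positive replicate 2, 3 or 4 (adjusted p up to 0.108), and the Zeb2 call without lung negative replicate 1, 3 or 4 or lung positive replicate 2 or 3 (up to 0.0832). Both were lost with library sizes alone, at -1.65 (0.0697) for Id3 and -0.24 (0.234) for Zeb2. Irf8 in IIA bone had 252, 205, 259, 263, 218 and 186 CPM against 121, 114, 92.2, 169, 187 and 241 (-0.54, SE 0.19, adjusted p = 0.0418, edgeR). It was lost without negative injection 1, 3, 4 or 5 or positive injection 1, 2 or 3 (up to 0.111). In each of these 3 comparisons the groups overlapped. Klf4 passed in none of the phagocyte comparisons.

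**Figure D4:**
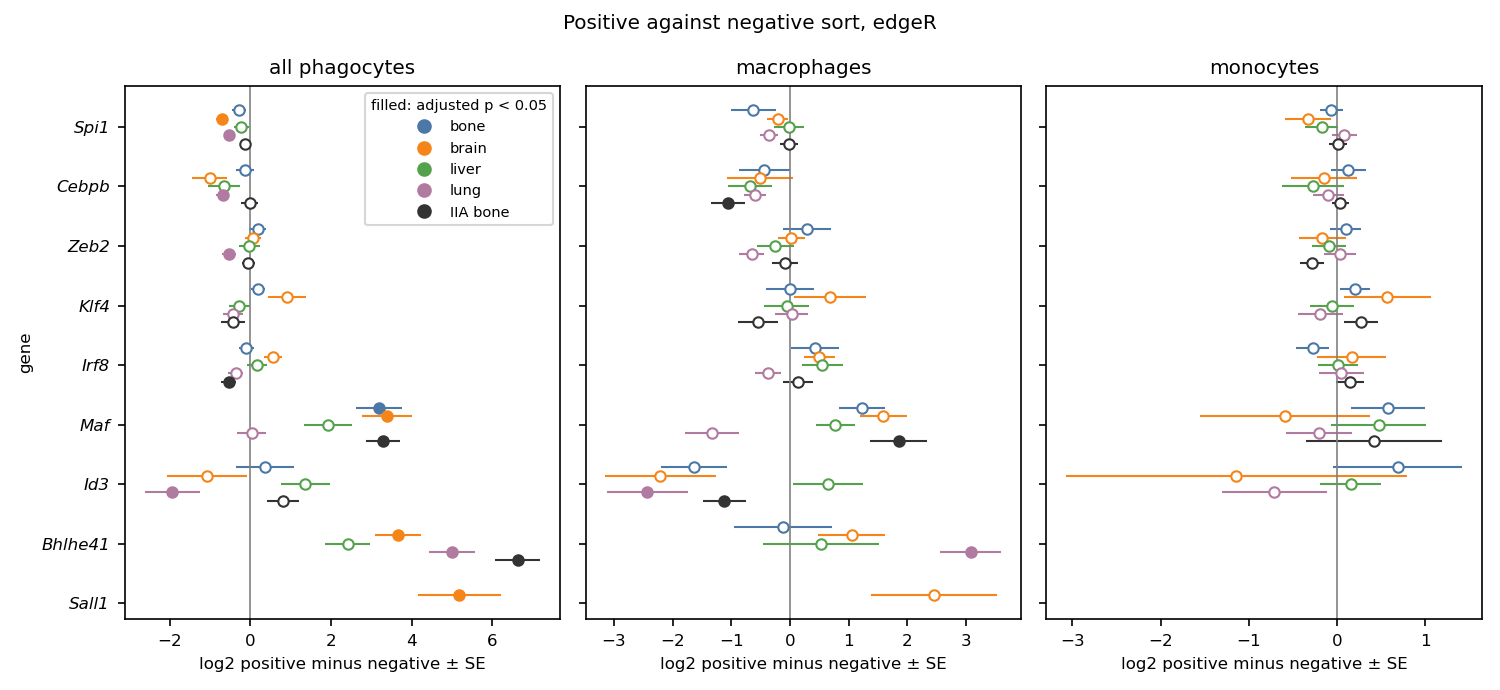
Difference between the positive and negative sort for each member, as log2 with its standard error, in all phagocytes, in macrophages and in monocytes of each tissue. Filled symbols passed an adjusted p of 0.05 by edgeR. Maf and Bhlhe41 lie above 0 in most phagocyte comparisons, and no monocyte symbol is filled.

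No member passed the sort comparison in monocytes alone. In bone, brain, liver and lung, edgeR called 0 of 8405, 8232, 8379 and 7813 genes. At an unadjusted p under 0.05 the counts were 198, 426, 216 and 271, and DESeq2 called 0, 0, 0 and 1. In IIA bone edgeR called 12 of 8986 genes (0.134%) and DESeq2 120, with no member among either. With the replicate block, Maf in liver monocytes had a difference of 0.83 (adjusted p = 0.0439, edgeR, 0.442% called). Without liver positive replicate 3, its value without the block was -0.054.

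Within macrophages, the sort comparison removes the monocytes from both sides but still mixes macrophage types in intracardiac tissues. In brain no member passed (1.76% of all genes called). Maf there had 392, 517, 397 and 636 CPM in the negative and 2822, 2111, 798 and 872 in the positive sort, without overlap (as for 12.7% of all genes), with a log2 difference of 1.59 (SE 0.40, adjusted p = 0.0763, edgeR). With the replicate block 5 members passed and 8.07% of all genes: Maf (adjusted p = 0.0415), Cebpb (0.0396), Id3 (0.0145), Sall1 (0.0113) and Bhlhe41 (0.0451). The Sall1 UMIs were those of the phagocyte comparison, and Bhlhe41 passed the filter on low counts only through the positive samples. Neither of these 2 calls adds support here. In liver Maf had 276, 437, 693 and 509 CPM against 931, 1047 and 699, also without overlap (as for 13.2%), and a difference of 0.77 (adjusted p = 0.347, edgeR, 0.0133% called). In bone, with 2 samples against 2, Maf had 341 and 276 CPM against 738 and 760 (1.23, SE 0.39, adjusted p = 0.613, edgeR, 0.014% called).

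Lung macrophages had Bhlhe41 higher and Id3 lower in the positive sort, where 19.4% of all genes were called. Bhlhe41 had 6.96, 27.0, 3.66 and 4.59 CPM against 90.2, 109, 197 and 53.9 (log2 difference 3.08, SE 0.52, adjusted p = 0.00674, edgeR), without overlap (as for 26.9% of all genes). The negative samples held 4, 21, 2 and 4 Bhlhe41 UMIs, and here too the gene passed the filter only through the positive samples. Id3 had 290, 252, 310 and 55.1 CPM against 109, 58.2, 20.4 and 8.82, with overlap (-2.43, SE 0.69, adjusted p = 0.0338), and was lost without lung negative replicate 1 or 3 or lung positive replicate 2 or 3 (up to 0.0873). Maf had 151, 231, 167 and 393 CPM against 130, 94.3, 46.2 and 197 (-1.32, SE 0.46, adjusted p = 0.0673, edgeR).

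A single cluster can be compared between sorts where both hold enough cells. In the Lyve1 macrophages of brain, Maf had 453, 911, 503 and 869 CPM in the negative and 3527, 2294, 1341 and 2205 in the positive sort. Every positive sample lay above every negative one, as for 9.62% of all genes in that cluster. The log2 difference was 1.61 (SE 0.32, adjusted p = 0.0757, edgeR), with 15, 88, 79 and 48 cells in the negative and 195, 537, 43 and 76 in the positive sort. edgeR called 0 of 3806 genes there, against 617 at an unadjusted p under 0.05, and DESeq2 called 106, Maf among them (adjusted p = 0.0012). Maf passed with the replicate block (1.57, adjusted p = 0.00362, 7.67% called), as did Klf4 (1.02, adjusted p = 0.0482), and without brain positive replicate 3 (1.77, adjusted p = 0.00722).

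The T-cell markers in that cluster, a cell type that also expresses Maf, summed to 35 to 379 CPM in negative and 43 to 341 in positive samples. Stress genes summed to 10931 to 37960 CPM in negative and 9497 to 39392 in positive samples. Both ranges overlapped between the sorts. Bhlhe41 in the same cluster had 17.4, 16.1, 25.7 and 59.9 CPM against 53.0, 33.4, 17.6 and 46.8, which overlap.

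In the Pf4 Spp1 macrophages of lung no member passed (0.672% of all genes called). Cebpb had 2893, 2596, 2174 and 2588 CPM in the negative and 1818, 1474, 1886 and 1678 in the positive sort, without overlap (as for 9.41% of all genes). Its log2 difference was -0.67 (SE 0.19, adjusted p = 0.123, edgeR, 0.0145 with the replicate block and 0.0106 by DESeq2). Maf had 177, 213, 168 and 398 CPM against 389, 497, 349 and 375 (0.64, SE 0.29, adjusted p = 0.317), and 1.07 (adjusted p = 0.0439) without lung negative replicate 4, its highest negative sample. Id3 had 321, 330, 312 and 57.5 CPM against 168, 214, 126 and 8.35 (-1.03, adjusted p = 0.494, and -1.24 with 0.0168 in the blocked fit, where 8.21% were called). Classical-monocyte markers summed to 6760 to 7747 CPM in the negative and 4582 to 6484 in the positive sort, and their part in the Cebpb difference was not tested.

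The IIA macrophages formed 1 cluster and were compared within it. Maf was higher in the labelled cells, with 8.63, 117, 63.4, 87.8, 19.0 and 16.9 CPM in the negative and 94.7, 237, 133, 343, 171 and 149 in the positive samples (log2 difference 1.85, SE 0.48, adjusted p = 0.0148, edgeR, 19% of all genes called). The negative sample of injection 2 lay among the positive ones. The negative samples of injections 1 to 6 held 2, 52, 12, 7, 8 and 4 Maf UMIs. Maf passed the filter on low counts only through the positive samples, so its call adds no support. Cebpb was lower, with 1411, 1741, 1390, 1242, 1686 and 1919 CPM against 534, 832, 690, 235, 1140 and 949 (-1.06, SE 0.29, adjusted p = 0.0185). Its groups did not overlap, as for 7.52% of all genes. Id3 had 73.4, 65.3, 52.9, 25.1, 54.6 and 50.8 CPM against 12.9, 13.7, 24.0, 72.2, 49.3 and 20.3 (-1.12, SE 0.37, adjusted p = 0.0441, edgeR, 0.119 by DESeq2). That call was lost in 9 of the 12 fits that left out 1 sample (up to 0.141), all but those without negative injection 4 or positive injection 4 or 5.

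Other values moved with these differences. Stress genes summed to 7137 to 10060 CPM in negative and 2474 to 6021 in positive IIA macrophages, and 8 of the 15 were lower. Classical-monocyte markers summed to 2911 to 8888 CPM and 1045 to 3354, and T-cell markers to 8.6 to 68.7 and 45.1 to 134.6. Their part in the Cebpb, Id3 and Maf differences was not tested.

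**Figure D5:**
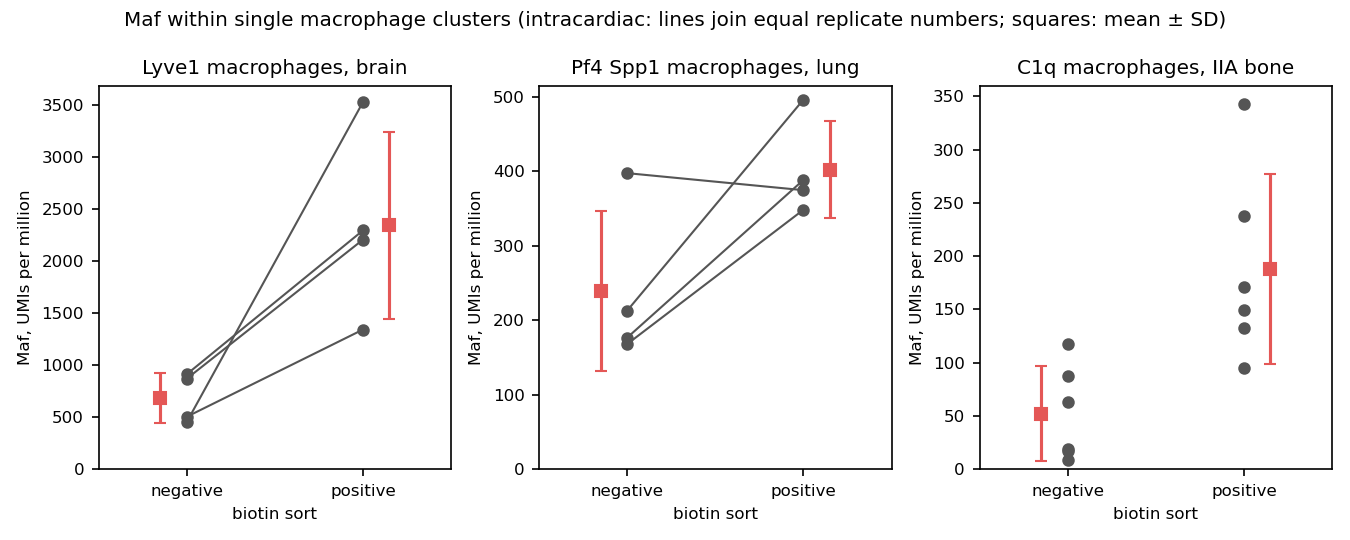
Maf in CPM within single macrophage clusters, by biotin sort: Lyve1 macrophages of brain, Pf4 Spp1 macrophages of lung and IIA bone macrophages. Points are samples, squares the mean with SD, and lines join equal replicate numbers in the 2 intracardiac panels. Brain positive samples lie at 1341 to 3527 CPM, above all negative ones.

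Relatives of the members and other lineage factors were counted in the same tests. Of the family relatives counted (31 genes, most of them Irf, Cebp, Id, Sall and Klf genes), 1 rose and none fell among 25 tested in bone phagocytes, 6 rose and 3 fell of 27 in brain, 5 rose and 10 fell of 25 in lung, and 6 rose and 6 fell of 26 in IIA bone. Of all genes, 2.38% were called in bone phagocytes, 37.6% in brain, 39.2% in lung and 29.9% in IIA bone. With library sizes alone, 9 rose and 2 fell in brain, 6 rose and 6 fell in lung, and 5 rose and 8 fell in IIA bone. The median log2 differences were 0.11 in bone, 0.22 in brain and -0.24 in lung, and the last was 0.05 with library sizes alone. Spic, a PU.1 relative that drives red-pulp and marrow macrophages that recycle iron, rose in bone (5.97) and IIA bone (4.54). Sall3 (5.12) and Sall2 (3.07) rose beside Sall1 in brain.

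Of 35 other lineage factors, 3 of 32 tested rose in bone, 13 rose and 1 fell of 32 in brain, 8 rose and 8 fell of 33 in lung, and 13 rose and 2 fell of 33 in IIA bone, beside the same shares of all genes. With library sizes alone these were 4 in bone, 14 and 1 in brain, 9 and 7 in lung, and 8 and 2 in IIA bone. Nr1h3, the liver X receptor alpha gene, rose in bone (3.94) and IIA bone (3.90), Mef2c, a microglial enhancer factor, in brain (2.29), and Pparg, needed for alveolar macrophages, in lung (3.85). Ahr (-2.34) and Irf5 (-1.73) fell in lung. Within IIA macrophages, where 19% of all genes were called, 2 relatives were higher and 5 lower of 18, and 2 lineage factors were higher and 7 lower of 28, with Nr4a1 at -2.05. Id2 (1.49), Cebpa (1.31) and Mitf (1.23) were higher there.

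Receptor genes that PU.1 is known to switch on were counted too (7 genes). In lung phagocytes, where 39.2% of all genes were called, 4 of 7 fell (median log2 difference -1.19), Cd14 by -2.04 and Csf1r by -1.35 among them, and with library sizes alone 3 fell and 1 rose. In brain phagocytes (37.6% called), Csf1r, the receptor on which microglia depend, rose by 2.07 and 2 of the 7 fell, Csf2ra by -1.12. In IIA macrophages (19% called) 4 fell, Cd14 by -1.39 among them, and Csf1r rose by 0.72.

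The genes whose levels followed each member most closely were found by Pearson's correlation of log2 CPM over 87 cell type, tissue and sort means of the intracardiac samples, among 8148 genes. These points share libraries and cell types, so the values are descriptions. Sall1 was closest to Sall3 (0.982), Nav3 (0.974) and Slc2a5 (0.966). For Spi1, the value for Csf2ra was 0.913. Cebpb was closest to Lilrb4a (0.917), Cd14 (0.903) and C5ar1 (0.894). Zeb2 was closest to its antisense gene Zeb2os (0.891), Ctsa (0.882) and Rrbp1 (0.862), and Maf to its antisense gene Gm15655 (0.858), Tmem37 (0.799) and Ap1b1 (0.748).

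Klf4 was closest to Tmem109 (0.859), Dusp3 (0.831) and Rras (0.824), and Irf8 to Calhm2 (0.821), Snx5 (0.818) and Tmem173 (0.782). Lower values were found for Bhlhe41, with Cd22 (0.724), Myo1e (0.663) and Enpp1 (0.631), and for Id3, with Rras (0.716), Secisbp2l (0.709) and Slfn5 (0.707). B cells had Bhlhe41 means of 27.1 to 74.0 CPM over intracardiac groups, which are among the points behind the Cd22 value.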

How the data were processed

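The deposited matrices hold UMI counts per gene and cell from Cell Ranger (6.1.2 for the intracardiac samples and 7.1.0 for the IIA pool, per the file headers), aligned to mm10 per the submitters' processing notes. The authors had already assigned the intracardiac cells to samples. IIA cells were assigned here to their leading hashtag when it had 10 counts or more and no less than 3 times those of the next, and the hashtags of the deposited list were matched to the matrix features by number. Cells were clustered with scanpy 1.11.5 (2000 variable genes without the members, 30 components, 15 neighbours, Leiden resolution 1.0), separately for each library type, and named from marker lists. Clusters with fewer than 10 leading genes stayed unnamed, a rule set after the data were seen. Unnamed clusters held 15.3% of the intracardiac and 23.2% of the IIA cells. No doublets were removed, and leaving out the top 5% by Scrublet score was an alternative.

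UMIs were summed per sample and cell set with at least 10 cells, and tested with edgeR 4.0.16 (quasi-likelihood, default filter on low counts, TMM) in R 4.3.3, with Benjamini-Hochberg adjustment over all genes tested and a threshold of 0.05. DESeq2 1.42.0 was an alternative, as were no filter, library sizes without TMM factors (added after the data were seen), other cell filters, leaving out each sample and the replicate number as a block. The scripts were tested on simulated data with 200 changed genes. The labels do not say which samples came from separate animals, so p-values measure the spread between these samples, which may be technical.

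Samples with the same replicate number deviated together (every correlation over 0.1) in all sort comparisons with 3 or more pairs except those named below, and there the blocked value is printed where it changes a call. The lowest correlation was 0.217 in brain phagocytes, 0.14 in brain macrophages, 0.109 in the Lyve1 cluster and 0.117 in the Pf4 Spp1 cluster. It was 0.0746 in bone phagocytes, 0.00808 in lung macrophages, and under 0.1 in all 3 IIA comparisons, where the numbers were not taken as pairs.

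The naming rule covered all 9 members in every comparison, and members with no value printed for a comparison did not pass there by edgeR or were not tested. Of the other lists, at most the 4 largest changes in each direction that passed are named, and for each member the 3 genes most like it. Some genes that these rules or lists select are not reported here and were left out of the counts of relatives and lineage factors. Members and lists were chosen with earlier results of these data known. The tests within bone and lung macrophages, IIA monocytes and the Lyve1 and Pf4 Spp1 clusters were added after the data were seen.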

Additional observations from a re-analysis of the deposited data

Results flagged for a closer look

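The effect of the sort on Maf in mononuclear phagocytes differed between the tissues, with an adjusted p of 0.027 for the interaction (edgeR).

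Of 160 groups of 4 to 10 samples, 17 held a sample far from the others by Dixon's test, which flags about 1 in 20 groups by chance. For Bhlhe41, 6 of them rested on few UMIs: 1.54 CPM in classical monocytes of lung negative replicate 2, 2.3 in those of lung positive replicate 1, 4.66, 7.88 and 3.19 in nonclassical monocytes of bone negative replicate 1, liver negative replicate 3 and lung negative replicate 3, and 2.25 in IIA macrophages of negative injection 2. The same holds for Sall1 at 0.335 CPM in alveolar macrophages of lung positive replicate 3 and 13.4 in Lyve1 macrophages of brain positive replicate 4, and for Id3 at 7.45 in microglia of brain positive replicate 2.

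The rest were at measurable levels. Id3 was 57.5 CPM in Pf4 Spp1 macrophages of lung negative replicate 4 and at least 312 in the other 3 replicates, and 96.8 in Lyve1 macrophages of brain negative replicate 2. Spi1 was 461 CPM in classical monocytes of bone negative replicate 4 and 445 in those of liver negative replicate 3. Irf8 was 139 CPM in classical monocytes of bone negative replicate 2. Cebpb was 1430 CPM in alveolar macrophages of lung positive replicate 4, against 2330 or more in the others. Zeb2 was 823 CPM in nonclassical monocytes of lung negative replicate 1, and Klf4 was 248 in IIA macrophages of negative injection 3.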

How the results depend on the processing

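Counts of members called are given against those of the report. Bone phagocytes (1) gave 2 with no filter on low counts and 2 with DESeq2, and 0 to 2 with single samples left out. Bone macrophages (0) gave 0 to 1. Brain macrophages (0) gave 1 with no filter, 1 with DESeq2 and 5 with the replicate block. With library sizes alone, an alternative added after the data were seen, lung phagocytes (5) gave 1 and liver phagocytes (0) gave 1. Liver phagocytes gave 1 with no filter, 2 with DESeq2 and 1 without the Pf4 Spp1 cluster, and liver monocytes (0) gave 1 with the replicate block. Lung phagocytes (5) gave 3 to 5 with single samples left out. Lung macrophages (2) gave 6 with DESeq2, 4 without doublets, 1 without the Pf4 Spp1 cluster, 5 with the replicate block and 1 to 4 with single samples left out. Monocytes across tissues (1) gave 2 with no filter, 2 with DESeq2, 5 with the replicate block and 0 to 1 with single samples left out. The interaction (1) gave 4 with the block and 0 to 2 with single samples left out. The Lyve1 cluster (0) gave 1 with no filter, with DESeq2 and without doublets, 2 with the block and 0 to 1 with single samples left out, and the Pf4 Spp1 cluster (0) gave 1 with no filter and with DESeq2, 2 with the block and 0 to 1. Leaving out single samples gave 5 to 7 members across positive macrophages, 4 to 6 in brain phagocytes and 2 to 3 in both IIA sets, and 0 in the remaining comparisons.

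Maf in lung phagocytes changed sign without the Pf4 Spp1 cluster (-2.24), with the replicate block (-0.082) and in some fits without single samples (range -0.32 to 0.29). Zeb2 in lung macrophages was 0.083 without the Pf4 Spp1 cluster, and Maf in liver monocytes was -0.054 without liver positive replicate 3 (range -0.054 to 1.21 over single samples left out). The causes were not tested. The block changed no other member call in sort comparisons whose numbers paired the samples, apart from those printed in the report. In lung macrophages, where they did not, it added Maf, Cebpb and Zeb2. Across tissues the numbers were not taken as pairs, because not every correlation was over 0.1. Most were: 23 of 24 correlations in monocytes, 11 of 16 in macrophages and 81 of 105 for the interaction. Unblocked fits across tissues take no account of these shared deviations. There the block added Maf (adjusted p = 0.00508, edgeR), Spi1 (0.0313), Cebpb (0.00493) and Zeb2 (0.0191) to Id3 in monocytes, and Spi1 (0.0429), Id3 (0.0412) and Klf4 (0.0307) to Maf in the interaction. Single contrasts went from 1 to 2 members for liver macrophages, from 1 to 5 for bone and 1 to 3 for lung monocytes, and from 0 to 3 for the brain and 1 to 3 for the lung interaction. In IIA phagocytes it gave Irf8 an adjusted p of 0.053 (edgeR). No paired fit was possible for bone macrophages because the 2 sorts shared fewer than 2 numbers. Low counts limit Sall1 outside microglia and Bhlhe41 in monocytes.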
